A study of Xenopus laevis with 27 samples.

Results

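Brains of adult Xenopus laevis frogs were compared between the silk treatment, which the study's design names as its sham, and no device. The comparison rests on 6 of the 27 libraries of the series, which were chosen by their tissue and treatment labels: Silk BR1, Silk BR2 and Silk BR3 from the silk group and ND BR1, ND BR2 and ND BR3 from the no-device group. The series title concerns brief local application of progesterone to the hindlimb, and the remaining libraries come from blastema (the tissue on an amputation surface), limb stump, and brains of the progesterone group. The 3 progesterone brain libraries, Pro BR1 to Pro BR3, received the hormone treatment. They entered the fit to estimate the spread, counted toward which genes were tested and named, and are given as side values. The labels give no strain, age, sex or sampling time, and they do not say what the silk treatment held. They do not say whether a library is 1 animal or a pool, and p-values therefore measure only the spread between these libraries.

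The device is worn on a limb, so the brain is a distant organ in this design. A limb wound or a worn device can reach the brain through nerves, circulating hormones and immune signals. In the frog brain, the hypothalamus controls the pituitary through releasing hormones such as those encoded by gnrh1 and crh, microglia are the resident immune cells, and type I interferon switches on a large set of antiviral genes in nearly every cell type. X. laevis carries a doubled genome, and the suffixes .L and .S name the homeologous copies of a gene.

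All 6 libraries expressed the genes that define brain tissue. The synaptic gene snap25.L had an FPKM (fragments scaled to gene length and to library size) of 328, 402 and 556 in Silk BR1, BR2 and BR3, against 567, 327 and 555 in ND BR1, BR2 and BR3. The inhibitory neuron gene gad1.1.L was at 79.2, 96.8 and 94.4 with silk and at 99.7, 79.9 and 94.6 without a device, and the myelin gene mbp.L at 350, 670 and 821 against 819, 498 and 830. These ranges overlapped between the groups.

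Some of the libraries stood apart from their labels or their depth. The library labelled Silk BR3 differed from ND BR1 at 0.325% and from ND BR3 at 0.322% of genes in a chi-square test of estimated reads, and ND BR1 differed from ND BR3 at 0.292%. Every other pair of brain libraries differed at 1.6% to 10.7% of genes. ND BR1 and ND BR3 agreed nearly within sampling noise and were therefore averaged and counted as 1 sample, so that n = 2 without a device. Fits were run with the library labelled Silk BR3 (n = 3) and without it (n = 2). Some results below are given from a single fit only. Silk BR1 and Silk BR2 were the shallowest, at 648195 and 814938 estimated reads, against 1852154 in the library labelled Silk BR3, 1396213 to 1890701 without a device, and between 1634825 and 2087485 in the progesterone libraries. They listed 26.1% and 25.4% of genes at 0, where the other 7 brain libraries listed 15.3% to 17.0%. In a gene of 1 kb, 1 read was worth an FPKM of 1.55 and 1.23 in these 2 libraries and of 0.529 to 0.718 in the other libraries of the comparison.

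With all 3 silk libraries, no gene passed an adjusted p of 0.05 (limma with Benjamini-Hochberg adjustment), 0% of 27147 tested genes. Of these 27147 genes, 1278 had an unadjusted p under 0.05, 1012 lower and 266 higher with silk. That count is no larger than the threshold alone would give among genes without a difference. The limma-voom alternative called 1 gene. Without the library labelled Silk BR3, 26 of 26632 genes passed (0.0976%). Of these 26 genes, 6 rose and 20 fell with silk, and 20 were listed at 0 in both Silk BR1 and Silk BR2. Among genes with a mean of at least 10 estimated reads, a filter added after the data were seen, 1 of 17968 genes passed with the library labelled Silk BR3 (0.00557%) and 8 of 17775 without it (0.0450%). All 3 silk libraries lay above all 3 no-device libraries in 604 of the 27147 tested genes (2.22%) and below them in 2149 (7.92%). Genes named below were mostly picked for a small p, so that a lack of overlap in them is a description. Differences below are silk minus no device on the log2(FPKM + 1) scale, with the standard error of the fit, and levels are FPKM. Differences and levels of single genes, and the shares without overlap, were left on the deposited scale. On that scale the median difference of all tested genes was −0.14 with the library labelled Silk BR3 and −0.19 without it.

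Among the genes that rose with silk were some very abundant gene models. The gene model smad4.1.S, named for the shared mediator of TGF-beta signalling, was at 23426, 20650 and 1531 in Silk BR1, BR2 and BR3, against 202, 105 and 108 in ND BR1, BR2 and BR3. The groups did not overlap, and the library labelled Silk BR3 lay far below Silk BR1 and BR2. Without that library smad4.1.S rose by 7.42 ± 0.250 (limma adjusted p = 9.2e-04), and with it the difference was 6.14 ± 1.06 (adjusted p = 0.484). The progesterone libraries held 1254, 1133 and 1225, close to the library labelled Silk BR3. 

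An unnamed gene model, gene32247, was at 9823, 8220 and 732 in the silk libraries and at 132, 62.0 and 49.1 in the no-device libraries. It rose by 6.89 ± 0.259 without the library labelled Silk BR3 (adjusted p = 9.4e-04). With that library the difference was 5.68 ± 1 and did not pass (limma adjusted p = 0.498). The FPKM of smad4.1.S was 2.05 to 2.62 times that of gene32247 in the silk and progesterone brain libraries, and 1.53, 1.70 and 2.20 times in ND BR1, BR2 and BR3. In limb tissue the ratio was 1.87 to 3.36 across all 18 libraries. A model named ccdc50.L, after a coiled-coil protein that binds ubiquitin, was at 23643, 22796 and 4092 with silk and at 1689, 1200 and 1444 without a device. It rose by 4.08 ± 0.272 without the library labelled Silk BR3 (adjusted p = 0.018). With that library the difference was 3.25 ± 0.717 and did not pass (limma adjusted p = 0.845). A second gene model with the name ccdc50.L lay between 4 and 7.61 with silk and between 5.74 and 7.28 without a device, and those ranges overlapped.

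Among abundant models, the unnamed gene20466 followed the same order, with 2483, 2454 and 1363 against 828, 678 and 668, at a difference of 1.79 ± 0.232 without the library labelled Silk BR3 that did not pass the test (adjusted p = 0.0926). Together these 4 models took 13.7% and 12.2% of the estimated reads of Silk BR1 and BR2, 1.14% of the library labelled Silk BR3, 0.795% to 0.934% in the progesterone libraries and 0.177% to 0.269% in the no-device ones. Of 50 tested TGF-beta and SMAD genes, smad4.1.S alone was called without the library labelled Silk BR3. The list median was 0.03 below that of all tested genes. The receptor-activated smad1.L, a mediator of BMP signals, had 2.81, 6.25 and 6.30 with silk and 10.9, 8.73 and 8.57 without a device.

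**Figure D1:**
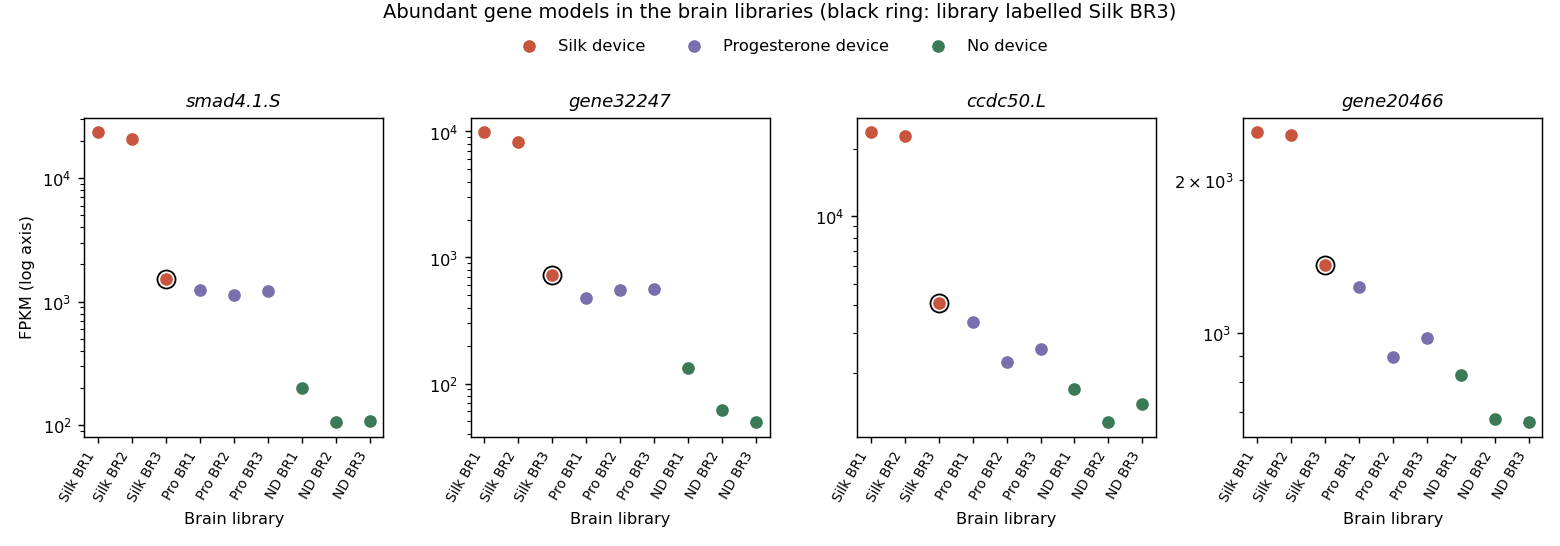
FPKM (log axis) of 4 abundant gene models in each of the 9 brain libraries, with silk, progesterone and no-device libraries as coloured points and the library labelled Silk BR3 ringed. For smad4.1.S, Silk BR1 and BR2 sit at 23426 and 20650, the ringed library at 1531 among the progesterone libraries, and the no-device libraries at 105 to 202.

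The same models set the library labelled Silk BR3 apart from the no-device libraries it otherwise resembled. It differed from both ND BR1 and ND BR3 at 19 genes, of which 11 were higher and 8 were lower in it. Among the 11 were smad4.1.S, gene32247, ccdc50.L and gene20466. Between ND BR1 and ND BR3 themselves 55 genes differed, and those 4 were among them.

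One unnamed model, gene4535, was listed at 0 in all 3 silk libraries, the library labelled Silk BR3 included. It was at 10.9, 7.05 and 8.32 in ND BR1, BR2 and BR3, from 186, 93.3 and 150 estimated reads, and at 5.1, 6 and 9.24 with progesterone. The groups did not overlap, and the gene was also listed at 0 in all 18 limb libraries. It passed the test with at least 10 estimated reads both with the library labelled Silk BR3 (adjusted p = 0.0057) and without it (adjusted p = 0.012). In the fit with all tested genes it passed without that library (adjusted p = 0.0439) and missed with it (adjusted p = 0.0837). 

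Other gene models were at or near 0 in Silk BR1 and BR2 alone. LOC108716546 was listed at 0 in both, against 27.2 in the library labelled Silk BR3 and 17.4, 19.4 and 18.9 without a device, where it rested on 11.7 to 15.5 estimated reads. It passed without the library labelled Silk BR3 (adjusted p = 0.0082). The unnamed gene23688 had the same pattern, with 43.2 in the library labelled Silk BR3 and 55.3, 19.7 and 36.2 without a device. It also passed without that library (limma adjusted p = 0.0439). With the library labelled Silk BR3 neither model passed (limma adjusted p = 0.939 for each). The splicing kinase gene clk3.S was at 0.07 and 0 in Silk BR1 and BR2 and at 3.46 in the library labelled Silk BR3, against 2.19, 3.07 and 2.73 without a device. Without the library labelled Silk BR3 it fell by 1.86 ± 0.19 among genes with at least 10 estimated reads (adjusted p = 0.030). Among all tested genes clk3.S missed both without that library (limma adjusted p = 0.0535) and with it (adjusted p = 0.939). The butyrophilin-like gene btnl8.L, of a family of immune surface proteins, was at 4.13, 4.34 and 22.0 with silk and at 11.8, 31.6 and 27.7 without a device. Without the library labelled Silk BR3 it passed with at least 10 estimated reads, at −2.31 ± 0.26 (adjusted p = 0.043), and missed among all tested genes (adjusted p = 0.073). With that library btnl8.L also missed among all tested genes (limma adjusted p = 0.939). 

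A set of models with consecutive identifiers was higher in all 3 silk libraries. LOC108710208 was at 16.1, 16.5 and 14.0 with silk, against 3.42, 9.05 and 4.46 without a device. LOC108710209 was at 14.0, 15.0 and 9.39 against 0.45, 3.32 and 4.24, and LOC108710207 at 9.40, 18.7 and 11.02 against 1.18, 7.26 and 0. The ranges of the groups did not overlap for any of these 3 models, as in the 2.22% of all tested genes with every silk library higher. The models were chosen after their values were seen, and no adjusted p passed. They were also among the 11 genes higher in the library labelled Silk BR3 than in both ND BR1 and ND BR3. LOC108710209 also differed between ND BR1 and ND BR3 themselves.

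**Figure D2:**
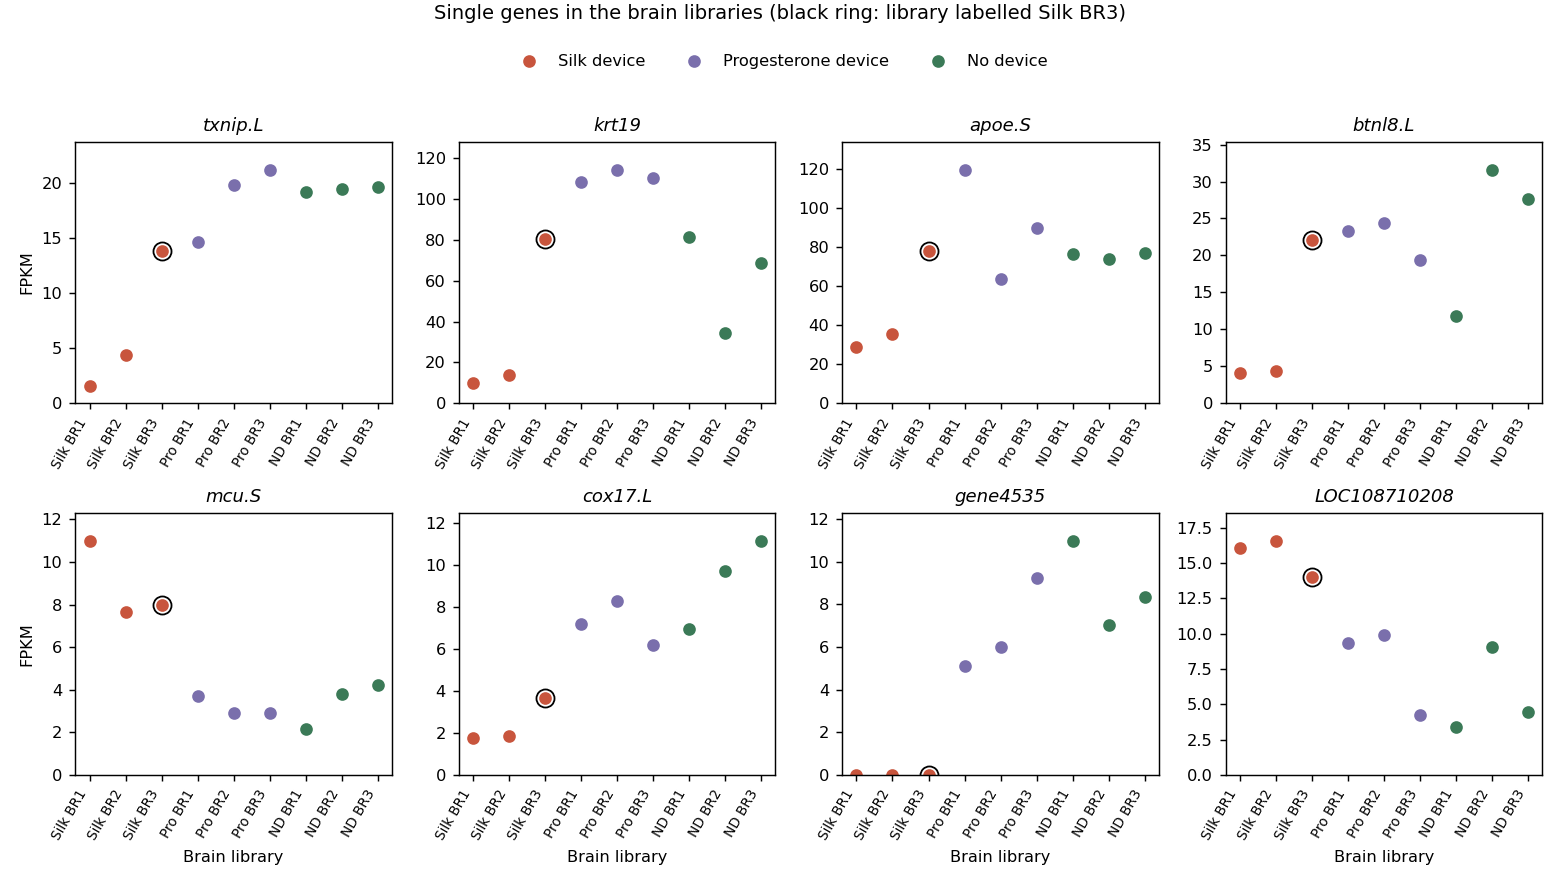
FPKM of 8 genes in the 9 brain libraries, silk at the left, progesterone in the middle and no device at the right, with the library labelled Silk BR3 ringed. In the upper row, the ringed library lies away from Silk BR1 and BR2 and near the other groups, as for krt19 at 9.83, 13.7 and 80.4. In the lower row all 3 silk libraries lie on one side of the no-device libraries, as for mcu.S at 7.63 to 10.97 against 2.16 to 4.22. All 3 silk libraries lay above in 2.22% of all tested genes and below in 7.92%.

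Among the named genes of smallest p with all 3 silk libraries in the fit, some act in mitochondria, and none passed the adjusted threshold. The gene mcu.S, which encodes the pore of the mitochondrial calcium uniporter, was at 10.97, 7.63 and 7.98 with silk, against 2.16, 3.82 and 4.22 without a device. Its difference was 1.18 ± 0.249 without the library labelled Silk BR3 (limma adjusted p = 0.276), the adjusted p with it was 0.741, and the progesterone libraries, at 2.89 to 3.69, lay within the no-device range. The gene cox17.L, a copper chaperone for cytochrome c oxidase, lay in the opposite direction, with 1.75, 1.85 and 3.65 against 6.93, 9.73 and 11.1. Its difference was −1.65 ± 0.277 with the library labelled Silk BR3 and −1.89 ± 0.215 without it (adjusted p = 0.466 and 0.0603), on 0.9 to 5.6 estimated reads in the silk libraries. The FPKM values of the groups did not overlap for either gene. Every silk library was higher in 2.22% of all tested genes and lower in 7.92%. The values of mcu.S rested on 8, 7 and 16.7 estimated reads with silk and on 4.4, 6 and 9 without a device. Estimated reads are not scaled to library depth, so they show how few reads were behind the values and do not compare levels.

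Subunits of the respiratory chain did not go one way. The complex IV gene cox6c.L was at 56.2, 52.1 and 57.6 with silk and at 34.1, 33.3 and 37.5 without a device, and the complex I gene ndufb1.S at 46.1, 59.5 and 42.2 against 25.0, 24.1 and 35.5. Both silk ranges lay above the no-device range, as in the 2.22% of all tested genes with every silk library higher. The complex III gene cyc1.L was at 2.09, 6.74 and 12.1 with silk, against 14.3, 13.1 and 18.9, a silk range that lay below. Every silk library was lower in 7.92% of all tested genes. Of 112 tested models of the respiratory chain list, 76 lay above and 36 below the median difference of all tested genes with the library labelled Silk BR3. In that fit 0 were called, as in all tested genes (0%), and the list median was 0.13 above that of all tested genes. Without the library labelled Silk BR3 it was 0.09 above, and with ND BR2 left out as well it was 0.01 below.

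The remaining named genes with higher values in silk had various roles. The vesicle transport gene sft2d2.L was at 13.4, 13.6 and 9.97 with silk, against 5.73, 3.54 and 7.89 without a device. The ER membrane complex gene tmem111.L had 9.19, 12.9 and 12.7 against 4.23, 1.88 and 9.00, and the tail-anchored protein receptor gene wrb.S had 22.9, 16.7 and 25.3 against 13.8, 10.4 and 13.7. The prefoldin gene pfdn4.S was at 7.07, 11.2 and 8.21 against 1.70, 4.38 and 7.24, where the lowest silk value lay inside the no-device range. The cyclophilin gene ppic.L had 10.2, 8.14 and 6.25 against 2.78, 0 and 3.50, and the cytochrome oxidase assembly gene smim20.L had 13.9, 11.1 and 14.6 against 3.77, 6.47 and 8.32. Several of these values rested on few estimated reads, which are not scaled to library depth and do not compare levels. In these reads ppic.L had 4.2, 4.2 and 7.4 against 3.2, 0 and 4.2. By the same measure smim20.L had 4, 4 and 12 against 3, 4 and 7, and tmem111.L had 4.5, 8 and 18 against 5.8, 2 and 13. The RNase P subunit gene pop4.L was at 6.78, 7.70 and 7.09 against 4.58, 3.60 and 2.98. Differences of these 7 genes ran between 0.79 and 2.16, and each had an adjusted p of 0.939 with the library labelled Silk BR3. One of 3 gene models named lsm2.S, of the LSM complex that binds the end of U6 snRNA, was at 12.7, 11.8 and 7.48 with silk and at 6.87, 2.45 and 2.82 without a device, at a difference of 1.34 ± 0.338 with the library labelled Silk BR3 and 1.56 ± 0.334 without it (adjusted p = 0.939 and 0.288). Values of the other models with this name are not given here.

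The named genes with lower values in all 3 silk libraries were as varied. The U1 snRNP gene snrpa.S was at 8.27, 7.66 and 7.20 with silk, against 15.9, 13.4 and 14.1 without a device, and the progesterone libraries lay at 11.9 to 15.1. The LSM complex gene lsm3.L was at 4.84, 3.85 and 5.91 against 8.74, 11.2 and 18.2, with progesterone at 2.99 to 5.74. The gene ept1.L, of an ethanolamine phosphotransferase that makes phosphatidylethanolamine, had 3.80, 2.79 and 4.17 against 7.37, 9.84 and 6.19. The gene vhl.L, whose protein marks hypoxia-inducible factors for degradation, had 4.22, 5.03 and 4.41 against 6.86, 11.8 and 10.1. Silk values rested on 2, 3 and 6 estimated reads for vhl.L and on 2, 2 and 7 for lsm3.L. The NF-kB inhibitor gene nfkbie.S had 1.69, 3.36 and 3.54 against 7.96, 9.05 and 6.94. None of these ranges overlapped, as in the 7.92% of all tested genes with every silk library lower, and the differences of these 5 genes lay between −0.80 and −1.29 with adjusted p-values of 0.845 or higher.

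The extracellular matrix gene bgn, which encodes biglycan, was at 3.31, 3.51 and 5.96 with silk and at 9.13, 11.02 and 7.36 without a device. The gene b3gat1.S, whose enzyme builds the HNK-1 carbohydrate of neural cells, had 6.69, 6.38 and 10.5 against 15.5, 16.0 and 12.5. The endosomal gene ppp1r21.L had 3.86, 3.84 and 5.97 against 8.23, 10.8 and 7.75, and the centrin gene cetn3.S had 2.17, 1.71 and 4.51 against 8.61, 7.02 and 8.97. Silk values of cetn3.S rested on 1, 1 and 6 estimated reads. In each of these 4 genes the library labelled Silk BR3 was the silk library nearest to the no-device range, without reaching it. The gene spsb3.S, of a ubiquitin ligase adaptor, was at 4.62, 3.35 and 3.99 against 8.81, 8.08 and 4.97.

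Some genes were named for a small p in the fit without the library labelled Silk BR3. Where that library lay with the no-device group, leaving it out widens the difference by construction. The gene txnip.L encodes a thioredoxin-binding protein that responds to glucose. It was at 1.57, 4.35 and 13.8 with silk, against 19.2, 19.5 and 19.6 without a device and 14.7 to 21.2 with progesterone. Its difference was −2.46 ± 0.378 without the library labelled Silk BR3 and −1.80 ± 0.630 with it (adjusted p = 0.143 and 0.939). The copy txnip.S was at 3.77, 5.99 and 16.0 against 17.7, 14.4 and 12.1. The forkhead factor gene foxn3.S had 2.17, 2.74 and 7.37 against 8.5, 8.71 and 11.2, the plakoglobin gene jup.S had 2.23, 3.09 and 6.91 against 6.55, 8.05 and 11.1, and the aryl hydrocarbon receptor gene ahr1a had 1.47, 1.22 and 5.28 against 5.47, 7.83 and 5.75. The tRNA modification gene osgep.L had 1.26, 1.40 and 6.88 against 5.12, 7.66 and 9.64, and the mitochondrial nucleotide-binding gene hint2.S had 4.04, 6.42 and 19.7 against 16.8, 16.9 and 33.1. In Silk BR1 and BR2, osgep.L rested on 1 and 1.4 estimated reads and hint2.S on 2 and 4.1. The ubiquitin-conjugation gene ube2v1.L was at 11.8, 16.7 and 41.2 against 37.0, 41.7 and 36.8. Silk BR1 and BR2 lay below all no-device libraries in these genes, while the library labelled Silk BR3 lay within or near their range. The choice of genes by the fit without that library favours this pattern.

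In the higher direction without the library labelled Silk BR3, the NEDD8-activating gene uba3.L was at 21.6, 30.3 and 13.6 with silk, against 10.2, 14.9 and 11.2 without a device. The gene rwdd1.L had 34.3, 24.2 and 14.6 against 10.5, 14.8 and 9.37, at a difference of 1.18 ± 0.307 (adjusted p = 0.341). The mitochondrial import gene pam16.L had 17.2, 18.2 and 10.6 against 8.94, 7.97 and 9.63, the lamellipodin gene raph1.L had 9.22, 8.58 and 5.26 against 3.99, 4.94 and 3.11, and the Golgi-to-ER retrieval gene rer1.L had 17.3, 18.3 and 9.04 against 12.8, 9.44 and 7.62. The RNA polymerase I gene polr1e.L had 10.2, 8.13 and 3.82 against 5.33, 3.69 and 5.44. No adjusted p passed in uba3.L, pam16.L, raph1.L, rer1.L or polr1e.L, and their differences lay between 0.80 and 0.96.

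Across all tested genes without the library labelled Silk BR3, 2240 were lower at an unadjusted p under 0.05 (8.41%) and 443 were higher (1.66%). After median-of-ratios scaling the counts were 1394 lower and 811 higher. The median of all tested genes was −0.19 as deposited and −0.04 after that scaling, and −0.14 and −0.03 with the library labelled Silk BR3. Medians of gene lists are therefore given relative to that of all tested genes, and members are counted below or above that median, which splits all tested genes evenly. Calls were rare, at 0% of all tested genes with the library labelled Silk BR3 and 0.0976% without it. A count of 0 called members therefore sets no list apart.

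The interferon-induced genes were the list with the lowest median, and its size followed 1 no-device library. Of 30 tested members, 30 lay below the median of all genes with the library labelled Silk BR3 and 0 were called, and the list median was 1.21 below that of all genes. Without that library the median was 1.42 below, and 9 of 30 members were lower at an unadjusted p under 0.05, against 8.41% of all genes. In 26 of the 30 members ND BR2 was the highest of the 9 brain libraries (86.7%), where it was the highest in 16.0% of all tested genes. With ND BR2 left out the median was 0.19 below with the library labelled Silk BR3 and 0.21 below without it. 

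The antiviral GTPase gene mx1 was at 0, 1.79 and 1.68 with silk and at 3.31, 148 and 3.69 in ND BR1, BR2 and BR3. The interferon-induced gene ifit5.L was at 4.13, 2.27 and 4.61 against 3.41, 132 and 4.41. The viral RNA sensor genes dhx58.L and ddx58.L were at 3.20, 3.27 and 5.65 and at 2.59, 2.74 and 3.63 with silk, against 9.01, 93.1 and 7.13 and 2.38, 49.1 and 2.78. Progesterone libraries held 2.31, 8.86 and 5.51 of mx1. Values of ifit5.L in ND BR1 and ND BR3 lay within the silk range, those of ddx58.L in or just below it, and those of mx1 and dhx58.L above it. ND BR2 stood alone in all 4 genes, of which mx1, ifit5.L and ddx58.L were chosen after their values were seen. Summed over the 33 models of the list, FPKM was 152, 107 and 224 with silk, against 230, 1167 and 232 without a device, and lay between 218 and 253 with progesterone.

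Among the members of smallest p in the interferon and myeloid lists were 4 genes of antigen presentation, for which no list of its own was made, and none of them passed the test. The gene b2m.L, for the light chain of class I molecules, was at 14.0, 6.95 and 36.0 with silk, against 34.9, 62.4 and 29.4 without a device and 21.5 to 23.7 with progesterone. The class I heavy chain gene mhc1a.L was at 45.4, 18.04 and 68.4 against 77.6, 90.6 and 73.5, with progesterone at 72.9 to 83.7. The invariant chain gene cd74.S, a marker of class II-bearing cells, was at 22.5, 18.6 and 51.0 against 41.2, 108 and 55.4, and its copy cd74.L at 7.26, 7.93 and 14.1 against 15.7, 19.4 and 15.8. The library labelled Silk BR3 lay inside the no-device range for b2m.L and cd74.S and just below it for mhc1a.L and cd74.L. Without the library labelled Silk BR3 the difference of b2m.L was −2.07 ± 0.410 (adjusted p = 0.249) and that of cd74.L −1.11 ± 0.276 (adjusted p = 0.329).

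**Figure D3:**
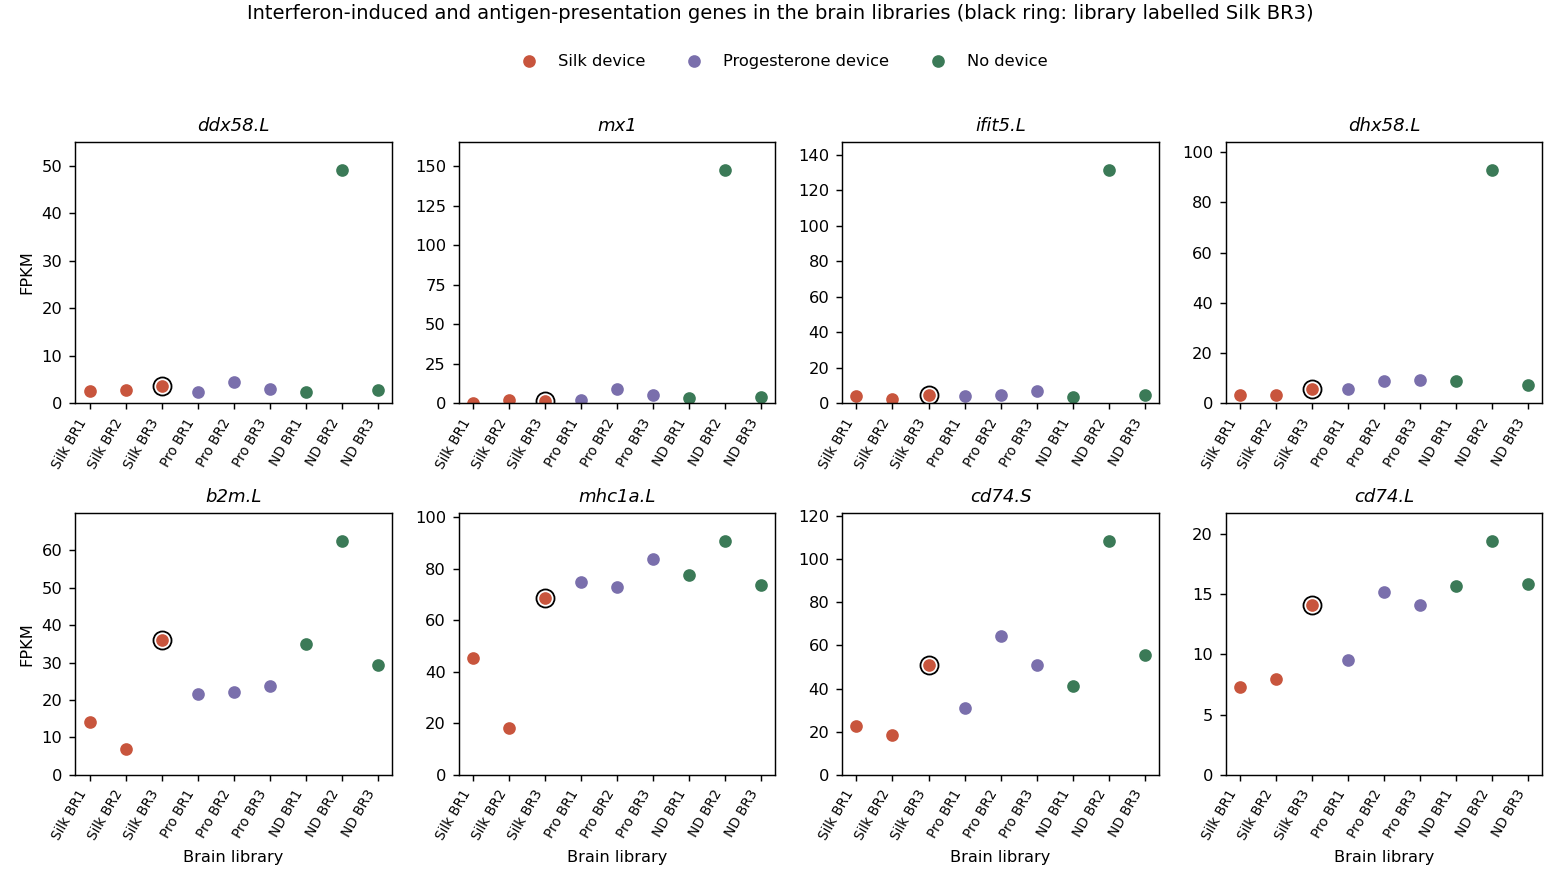
FPKM of 4 interferon-response genes and 4 antigen-presentation genes in the 9 brain libraries, ordered as silk, progesterone and no device, with the library labelled Silk BR3 ringed. Of these, mx1, ifit5.L and ddx58.L were chosen after their values were seen, and the others were named for a small p. ND BR2 stands alone for mx1 (148) and ifit5.L (132), whereas for mhc1a.L the lowest points are Silk BR1 and BR2 at 45.4 and 18.04.

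Markers of myeloid cells and microglia had lower sums in Silk BR1 and BR2. Of 22 tested members, 15 lay below the median of all genes without the library labelled Silk BR3, 9 at an unadjusted p under 0.05 in that direction against 8.41% of all genes, and 0 were called. The complement gene c1qa.L, expressed by microglia, was at 2.65, 2.25 and 6.75 with silk, against 9.09, 10.8 and 5.81 without a device. Summed FPKM of the 31 models was 78.7, 87.9 and 139 with silk, against 120, 241 and 136 without a device, and lay between 100 and 191 with progesterone. The list median was 0.37 below that of all genes with the library labelled Silk BR3 and 0.53 below without it. With ND BR2 also left out it was 0.04 below. In bulk tissue, fewer cells of a type and less RNA per cell cannot be told apart.

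Epidermal markers had lower sums in Silk BR1 and BR2 as well. The keratin gene krt19 was at 9.83, 13.7 and 80.4 with silk, against 81.3, 34.3 and 68.7 without a device and 109 to 114 with progesterone, and its copy krt19.L was at 3.14, 12.1 and 37.3 against 30.5, 19.2 and 35.6. The simple-epithelium keratin gene krt8.S was at 10.4, 11.5 and 27.5 against 27.2, 17.1 and 22.6. Without the library labelled Silk BR3, 14 of 17 tested epidermis markers lay below the median of all genes. At an unadjusted p under 0.05, 7 were lower, against 8.41% of all genes, and 0 were called. The list median was 0.67 below that of all genes. With that library the median was 0.34 below, and it was 0 with all libraries but Silk BR1. Without the library labelled Silk BR3 and with no filter on low values it was 0.12 below. The summed FPKM of the 35 models was 81.4, 104 and 236 with silk, against 238, 154 and 229 without a device, and lay between 300 and 353 with progesterone.

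Among meningeal and connective tissue genes, aldh1a2.L, for a retinoic acid synthesising enzyme of the meninges, was at 2.36, 4.64 and 6.33 with silk, against 7.86, 9.55 and 7.31 without a device. The collagen VI gene col6a1.L was at 1.27, 2.18 and 3.35 against 3.53, 5.14 and 3.66, and in both genes the silk range lay below the no-device range. Every silk library was lower in 7.92% of all tested genes. Of 35 tested members, 26 lay below the median of all genes with the library labelled Silk BR3 and 24 without it. Without it 6 were lower at an unadjusted p under 0.05, against 8.41% of all genes. The list median was 0.17 below that of all genes with that library and 0.25 below without it, and 0 were called. The progesterone libraries were uneven in this list, with a summed FPKM of 470, 3814 and 2521.

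Among myelin genes, pmp22.L and mpz.S had the largest differences of the ones named here. The gene pmp22.L was at 0.99, 2.75 and 10.1 with silk, against 8.73, 11.5 and 7.07 without a device, and mpz.S at 2.11, 5.60 and 10.9 against 8.73, 27.1 and 9.44. Both encode membrane proteins of myelin. The glial factor gene sox10.L was at 6.77, 4.73 and 15.0 against 14.7, 10.3 and 15.2. Of 25 tested myelin genes 19 lay below the median of all genes without the library labelled Silk BR3, with 0 called. At an unadjusted p under 0.05, 4 were lower, against 8.41% of all genes. The list median was 0.04 below that of all genes with the library labelled Silk BR3 and 0.25 below without it. With Silk BR1 left out as well it was 0.05 above.

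Astroglial genes held apoe.S, which encodes the lipid carrier of glia, at 28.8, 35.4 and 78.3 with silk, against 76.6, 74.1 and 76.9 without a device and 63.6 to 120 with progesterone. The radial glia gene fabp7.L was at 37.5, 21.8 and 44.4 against 42.4, 45.2 and 44.4. Of 22 tested members, 15 lay below the median of all genes without the library labelled Silk BR3. At an unadjusted p under 0.05, 2 were lower, against 8.41% of all genes. The list median was 0.06 below that of all genes with the library labelled Silk BR3 and 0.10 below without it. It was 0.34 below with ND BR2 also left out and 0.10 above with the averaged no-device sample left out instead.

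Of 35 tested neuron markers 1 was lower at an unadjusted p under 0.05 without the library labelled Silk BR3, against 8.41% of all genes. At that p 0 were higher, against 1.66% of all genes. The list median was 0.03 above that of all genes without the library labelled Silk BR3. It was 0.05 above with that library, and 0.08 below without it and ND BR2. Medians of the glutamatergic and of the GABAergic and glycinergic lists were 0.04 and 0.02 above without the library labelled Silk BR3. Of their 21 and 22 tested members, 0 had an unadjusted p under 0.05. Among all genes 8.41% were lower and 1.66% higher at that p. The glutamate transporter gene slc17a7.S was at 31.0, 26.4 and 34.1 with silk and at 32.2, 27.4 and 37.2 without a device. Growth cone and synaptic genes with the smallest p were gap43.S, at 81.1, 58.7 and 125 against 121, 90.1 and 123, and vamp2.S, at 133, 96.8 and 183 against 189, 147 and 182. The RNA-binding gene elavl3.L of young neurons was at 7.19, 7.85 and 13.7 against 11.2, 13.7 and 14.4.

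Some peptide and amine genes of the hypothalamus and midbrain, picked for a small p or after their values were seen, were lower in Silk BR1 and BR2. The gonadotropin-releasing hormone gene gnrh1.L was listed at 0 in both and at 23.6 in the library labelled Silk BR3, against 19.99, 18 and 18.9 without a device and 13.7, 4.38 and 1.84 with progesterone. It rested on 7.1 to 10.2 estimated reads in the no-device libraries. The melanin-concentrating hormone gene pmch.S was at 17.2, 11.4 and 36.0 against 36.3, 34.7 and 29.4, and the substance P precursor gene tac1.S at 18.6, 25.7 and 36.7 against 37.3, 34.7 and 51.1. The stress peptide gene crh.S had 3.06, 2.43 and 4.73 against 4.15, 6.17 and 6.79. The amine synthesis genes ddc.L and th.S had 0, 0.78 and 7.88 and 2.32, 1.84 and 4.74 with silk, against 3.55, 5.94 and 9.41 and 3.64, 4.74 and 4.75. The genes crh.S, ddc.L and th.S were chosen after their values were seen. In Silk BR1 and BR2 they rested on few estimated reads, 2.4 and 2.4 for crh.S, 0 and 1 for ddc.L, and 2 and 2 for th.S. 

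These 6 genes did not pass the test, with adjusted p-values of 0.149 to 0.405 without the library labelled Silk BR3. Neuropeptide genes as a list had 26 of 47 tested members below the median of all genes and 6 lower at an unadjusted p under 0.05, against 8.41% of all genes. The list median was 0.01 above that of all genes with the library labelled Silk BR3 and 0.03 below without it. With ND BR2 also left out it was 0.19 below. Of 25 tested genes of the monoamine and acetylcholine list, 12 lay above and 13 below the median of all genes. At an unadjusted p under 0.05, 1 was higher and 2 were lower, against 1.66% and 8.41% of all genes.

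Pituitary hormone genes varied most between libraries of 1 group. Prolactin, prl.1.L, was at 1.79, 1054 and 88.0 in Silk BR1, BR2 and BR3, at 454, 51.0 and 236 with progesterone, and at 86.6, 1206 and 77.1 in ND BR1, BR2 and BR3. The precursor of ACTH and melanotropins, pomc.L, was at 8.13, 149 and 29.3 with silk and at 29.9, 152 and 39.8 without a device. The shared glycoprotein hormone subunit cga.S had 3.96, 335 and 27.7 against 24.1, 272 and 41.1, the thyrotropin subunit tshb.S had 0.76, 71.3 and 4.53 against 3.89, 68.6 and 4.24, and the follitropin subunit fshb.L had 0.57, 25.6 and 6.91 against 5.54, 41.7 and 6.41. Silk BR2 and ND BR2 were the highest libraries in each of these 5 genes, and Silk BR1 was the lowest in 11 of the 17 tested members of the list (64.7%), against 24.3% of all genes. 

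Summed over 18 models, pituitary FPKM was 30.1, 3077 and 350 with silk, 1244, 243 and 670 with progesterone, and 355, 3445 and 389 without a device. The list median was 1.18 below that of all genes with the library labelled Silk BR3 and 1.04 below without it. With ND BR2 left out it was 0.03 above, and without Silk BR1 and the library labelled Silk BR3 it was 0.95 above, so its sign followed single libraries.

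Skeletal muscle genes were high in Silk BR1. The muscle actin acta1.L was at 55.6, 0.88 and 2.59 with silk and at 2.78, 5.92 and 1.51 without a device. The muscle creatine kinase ckm.S was at 35.2, 1.2 and 1.17 against 1.41, 3.78 and 2.32, the myosin light chain myl1.S at 38.7, 1.38 and 2.03 against 1.88, 1.09 and 2.37, and the tropomyosin tpm2.S at 26.0, 5.25 and 3.07 against 3.18, 4.37 and 2.44. Silk BR1 was the highest of the 9 brain libraries in 17 of 25 tested members (68.0%), against 12.2% of all genes. Summed over 51 models, FPKM was 441, 69.1 and 103 with silk, against 75.2 to 91.2 without a device, and lay between 73.2 and 121 with progesterone. The list median was 0.74 above that of all genes with all 3 silk libraries and 0.03 above without Silk BR1. The part of muscle RNA in the other differences of Silk BR1 was not tested.

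**Figure D4:**
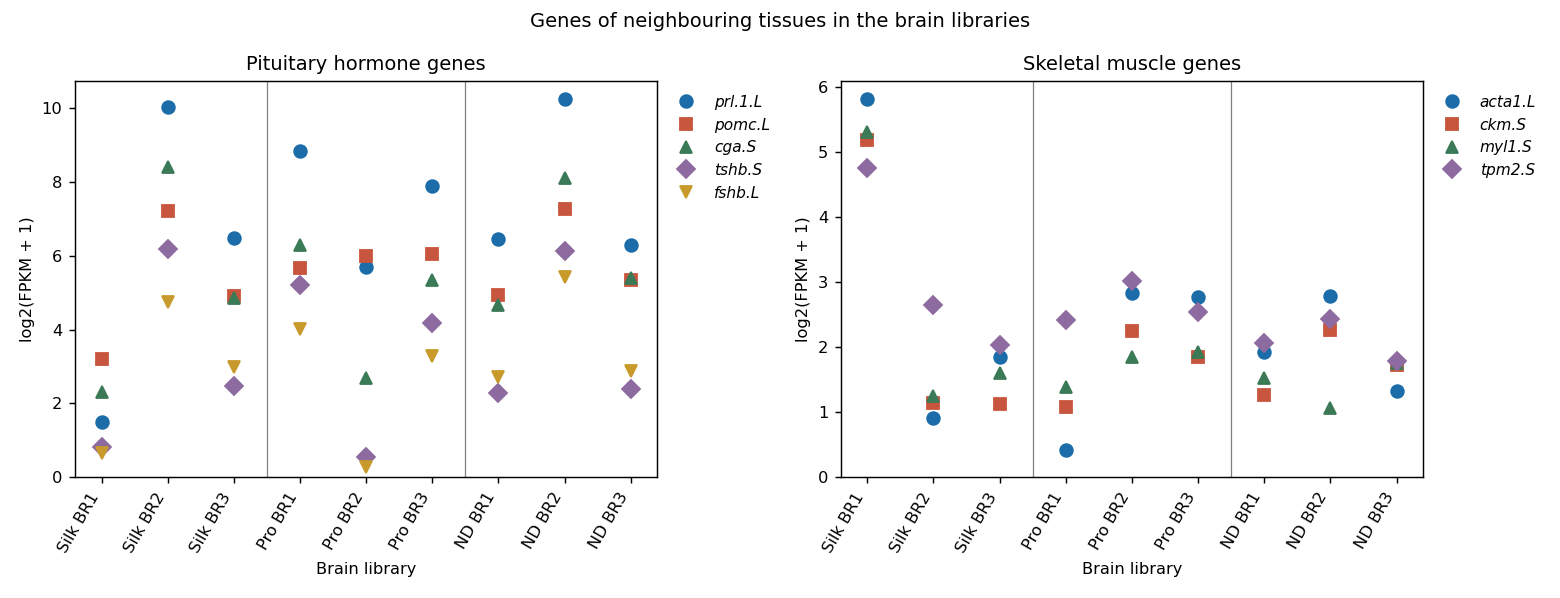
Values of log2(FPKM + 1) for 5 pituitary hormone genes (left) and 4 skeletal muscle genes (right) in each brain library, with vertical lines between the silk, progesterone and no-device libraries. Silk BR2 and ND BR2 are high and Silk BR1 is low for the hormones, and Silk BR1 alone is high for the muscle genes.

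Heat shock and chaperone genes had a median 0.13 above that of all genes with the library labelled Silk BR3 and 0.14 above without it. Without that library 2 of 40 members were higher at an unadjusted p under 0.05, against 1.66% of all genes. They were hsph1.S, for a large heat shock chaperone, at 7.83, 8.52 and 4.18 with silk against 4.89, 3.64 and 5.25 without a device, and the heat shock factor gene hsf2.L, at 9.88, 9.33 and 6.89 against 5.66, 5.16 and 8.23. The co-chaperone gene dnaja1.L lay the other way, at 13.1, 10.1 and 16.3 against 16.6, 18.7 and 16.7. Oxidative stress genes had 35 of 53 tested members below the median of all genes, with both txnip copies among those of smallest p. At an unadjusted p under 0.05, 7 were lower, against 8.41% of all genes. After median-of-ratios scaling 4 were lower at that p, against 1394 of 26547 genes. The haem oxygenase gene hmox1.L was at 5.75, 12.5 and 16.8 with silk and at 18.4, 18.01 and 16.4 without a device. The median of the oxidative stress list was 0.17 below that of all genes without the library labelled Silk BR3 and 0.08 below with it.

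Genes that respond to glucocorticoids had 24 of 41 tested members below the median of all genes without the library labelled Silk BR3. At an unadjusted p under 0.05, 7 were lower, against 8.41% of all genes. After median-of-ratios scaling 3 were lower at that p, against 1394 of 26547 genes. The list median was 0.18 below that of all genes without the library labelled Silk BR3 and 0.04 below with it. Among genes with a mean FPKM of at least 5 the list median was 0.01 above without that library. The stress-induced gene ddit4.S was at 8.34, 1.67 and 14.2 with silk, against 15.3, 9.94 and 21.3 without a device, and zbtb16.L at 8.95, 8.85 and 18.2 against 18.8, 11.9 and 17.6. The immediate early gene nr4a1 was at 4.89, 6.66 and 11.1 with silk and at 10.1, 11.1 and 9.91 without a device, and egr1.S at 7.55, 6.42 and 14.6 against 11.7, 10.1 and 14.5. Among hypoxia genes the mitophagy receptor gene bnip3l.L had 17.0, 14.1 and 33.6 against 39.9, 26.1 and 33.6. The unfolded protein factor gene xbp1.L was at 21.9, 16.8 and 30.1 against 26.4, 34.2 and 31.8. In each of these 6 genes the library labelled Silk BR3 lay within or near the no-device range and Silk BR1 and BR2 below it. Without the library labelled Silk BR3, the lists of immediate early, hypoxia and unfolded protein genes had medians 0.09 below, 0.03 below and 0.13 above that of all genes. With that library these medians were 0.03, 0.02 and 0.08 above.

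Ribosomal protein genes had a median 0.08 below that of all genes with the library labelled Silk BR3 and 0.15 below without it, and 0 with all libraries but Silk BR1. Of 119 tested models, 81 lay below the median of all genes with the library labelled Silk BR3 and 93 without it. Without it 12 were lower at an unadjusted p under 0.05, against 8.41% of all genes, and 0 were called. After median-of-ratios scaling 3 were lower at that p, against 1394 of 26547 genes. The gene rpl17.S was at 97.5, 111 and 230 with silk, against 212, 187 and 193 without a device, and rpl23a.L at 160, 137 and 256 against 239, 224 and 290. Silk BR1 was the lowest of the 9 libraries in 67 of the 119 models (56.3%), against 24.3% of all genes. Sums over the list were 14260, 16040 and 19770 with silk, against 18920, 17930 and 20000 without a device, with progesterone libraries at 16640 to 19990.

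The device is sham for a steroid treatment, and the receptors for steroid and thyroid hormones were among the lists. Of 43 tested members 28 lay below the median of all genes without the library labelled Silk BR3, and the list median was 0.06 below. With ND BR2 also left out, 21 lay below and 21 above, and the median was 0.01 below. Of the 45 members tested with all libraries, ND BR2 was the highest of the 9 in 15 (33.3%), against 16.0% of all genes. Without the library labelled Silk BR3, 1 member was lower at an unadjusted p under 0.05, against 8.41% of all genes. That member was paqr8.S, which encodes a membrane progestin receptor, at 6.23, 7.38 and 14.8 with silk, against 16.8, 11.8 and 13.3 without a device and 12.5 to 14.8 with progesterone. Its difference was −0.88 ± 0.226 without the library labelled Silk BR3 (adjusted p = 0.337). The linker histone gene h1f0.L was at 42.8, 63.2 and 130 with silk and at 122, 71.0 and 118 without a device. Its list of histone and chromatin genes had a median 0.01 above that of all genes without the library labelled Silk BR3 and 0.01 below with it.

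The remaining 11 lists with at least 5 tested members include the monoamine and acetylcholine list. These lists had 0 members called without the library labelled Silk BR3, against 0.0976% of all tested genes. Their medians, relative to that of all genes, ran between −0.07, for the choroid plexus, inflammatory mediator and cartilage lists, and 0.15, for genes of ependyma and motile cilia. Endothelial and erythrocyte markers had medians of 0.04 and 0.05, and neural progenitor genes of −0.02. These small medians moved with single libraries. With ND BR2 also left out they were 0.30 for endothelial markers, 0.24 for cell cycle genes, −0.36 for retina and pineal genes, −0.24 for monoamine genes, −0.25 for the choroid plexus and −0.02 for ependyma.

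**Figure D5:**
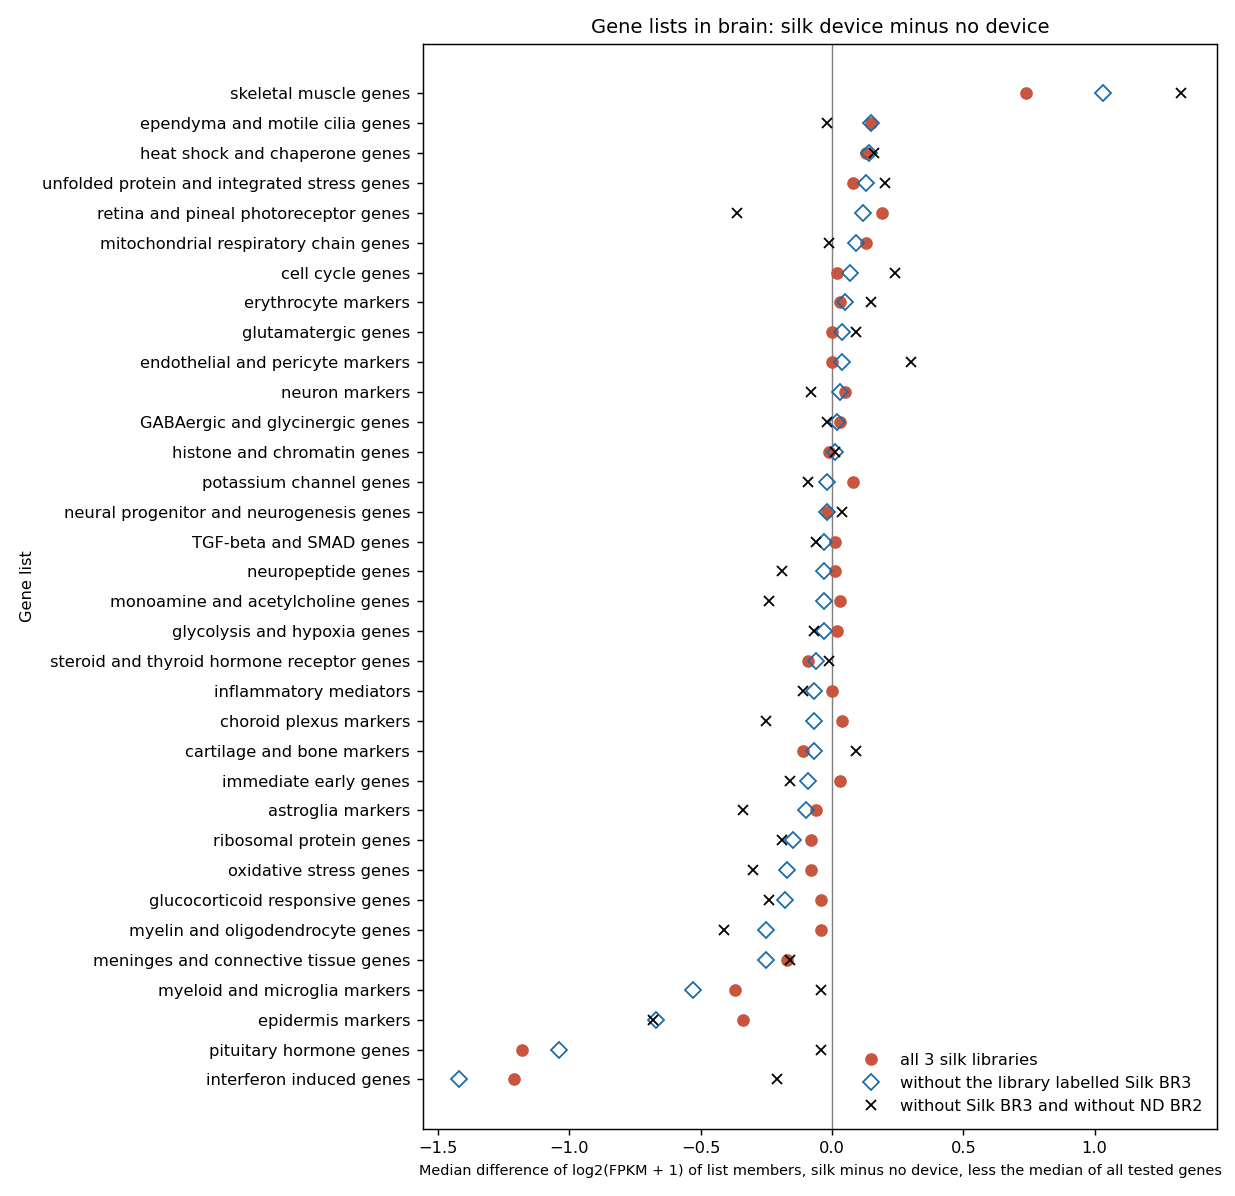
Median silk minus no-device difference of log2(FPKM + 1) for each gene list with at least 5 tested members, less the median of all tested genes, with all 3 silk libraries (filled circles), without the library labelled Silk BR3 (open diamonds) and without ND BR2 as well (crosses). The interferon list lies at −1.21, −1.42 and −0.21, and the pituitary list at −1.18, −1.04 and −0.04.

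The authors' deposited table gave their own silk and no-device comparison of all 3 against 3 libraries. In the authors' deposited table, 9 of 36922 genes had a q-value under 0.05 (0.0244%), 4 with a positive and 5 with a negative log2 fold change. Of the 36922 genes there, 1135 had a p-value under 0.05, no more than that threshold alone would give. The authors' deposited table gave a log2 fold change of 6.95 for smad4.1.S and 6.44 for gene32247, each with a q-value of 0.039. The values for gene22061 and gene30535 in the authors' deposited table were 4.05 and 5.14, both unnamed models. In this fit gene22061 rose by 3.55 ± 0.360 without the library labelled Silk BR3 (limma adjusted p = 0.0451), on 19 and 16 estimated reads in Silk BR1 and BR2, and gene30535 did not pass (adjusted p = 0.175). With that library neither gene22061 nor gene30535 passed (limma adjusted p = 0.939 for each). These models were at 28.2, 18.9 and 3.63 and at 82.1, 83.0 and 2.60 with silk, against 1.07, 1.38 and 0.51 and 0, 3.47 and 0 without a device. 

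The 5 negative genes in the authors' deposited table were gene4535 (q = 2.9e-28), mx1 (log2 fold change −5.20), znfx1.L (−3.50), LOC108697739 (−6.40) and LOC108696667 (−4.52). The RNA-binding gene znfx1.L was at 1.94, 1.07 and 1.57 with silk and at 1.94, 52.4 and 2.43 without a device, LOC108697739 at 1.46, 0.71 and 0.63 against 0.57, 263 and 0.57, and LOC108696667 at 3.91, 4.44 and 4.86 against 5.85, 323 and 5.61. ND BR2 was the only high library in these 3 and in mx1. In the limma fit with the library labelled Silk BR3, those 4 genes had adjusted p-values of 0.939. That fit averaged ND BR1 with ND BR3, used log2(FPKM + 1) and took the progesterone libraries into the spread. The deposited values come from the authors' own test, so the tests differ in more than the averaging.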

How the data were processed

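RNA of 9 brain libraries was analysed from 1 of the 9 deposited tables, and 0 library columns were left unused. Per the labels' protocols, total RNA was depleted of ribosomal RNA, amplified for 10 cycles and read for 40 nt. FastQC, Trimmomatic, STAR, RSEM and edgeR are listed in the submitters' processing notes. For the genome build, annotation and strand, a statement is not given in the sources used here. The library values were read as FPKM made by the authors, since multiplying them by gene length gave 1 common sum for all libraries. The authors' group means are a deposited signal, headed as average CPM. The deposited p-values, q-values and log2 fold changes come from the authors' own test. The table holds 36922 genes, of which 8652 have no name.

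Gene lengths and reads were estimated from FPKM and the deposited group means. Between 67.8% and 72.3% of low values fell within 0.1 of an integer, so no count test served as a main result, and estimated reads entered only the comparison of library pairs, a read filter and the limma-voom alternative. Library pairs were compared over genes with at least 20 estimated reads, and pairs under 1% were called near-identical. Differences were fitted to log2(FPKM + 1) by limma 3.58.1 (R 4.3.3), keeping genes at 1 FPKM or more in 3 samples or more, with all brain samples in one fit. The code was tested on simulated data. A pseudocount of 1 understates changes of low genes, and a gene listed at 0 in a shallow library can have several FPKM.

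The members and the 35 gene lists (971 of 1183 symbols found, .L and .S copies together) were chosen with earlier results of these data known. Named genes have a name and a mean FPKM of at least 5. They were taken from the 12 of smallest p in each direction with and without Silk BR3, the 3 of smallest p in each list without it, and smad4.1.S. Any other gene named was chosen after its values were seen. Near-identical gene copies share short reads, so their values are uncertain. Alternatives covered the pseudocount, filter, scaling, samples fitted, replicate block, limma-voom and each replicate left out.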

Additional observations from a re-analysis of the deposited data

How the results depend on the processing

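The count of 0 genes with all 3 silk libraries became 35 with a pseudocount of 0.1, 5 with separate libraries, 1 with limma-voom on estimated reads and 1 with at least 10 estimated reads, an alternative chosen after seeing the data. It stayed at 0 with the replicate block and in the other planned settings. Leaving out a replicate or the averaged no-device sample gave 0 to 26 genes, 26 being the count without Silk BR3, and 13 without the averaged sample. Without Silk BR3 the count of 26 became 231 with a pseudocount of 0.1, 5 with a pseudocount of 5, 55 with separate libraries, 4 with the replicate block on separate libraries, 2 with silk and no-device libraries only, 4 with limma-voom and 8 with at least 10 estimated reads. It ranged from 2 to 58 when 1 more replicate or the averaged sample was left out, with 2 without Silk BR1, 58 without Silk BR2, 14 without ND BR3 and 2 without ND BR2. Of the 26 genes, 24 were called again after median-of-ratios scaling. Same-numbered silk and no-device libraries had deviations that correlated at −0.04, 0.05 and 0.11, against −0.15 to 0.08 for different numbers. The near-identical libraries enter these deviations, so the values cannot decide whether same-numbered libraries are pairs. The main fit treated them as unpaired. No printed difference of a named gene changed sign under any alternative run. Counting error at 648195 and 814938 estimated reads limits Silk BR1 and BR2 most, and the cause of the changes in counts was not tested.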
